A study of Mus musculus with 2 samples.

Results

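Autophagy machinery genes were examined in growth plate cartilage of wild-type C57BL/6J mouse embryos at E17.5. The set was defined by a list of gene symbols, drawn up with earlier results of these data known and using no measured value, and holds the ATG genes and their partners from induction to fusion, with the mTORC1 kinase branch that restrains the process and the MiT/TFE transcription factors. It comprised 49 of the 18193 genes that a probe set named alone, or 107 of 34945 probe sets. The cargo receptor gene Optn belongs to the same definition and was not analysed here. The zone rich in round chondrocytes was measured on 1 array (the round array), and the zone rich in columnar and hypertrophic chondrocytes on another (the CH array). Each array carried a mixture of 3 portions, no embryo carried a mutation or received a treatment, and columnar cells were not separated from hypertrophic cells. With 1 array for each zone there was no replicate, no test and no replicate error, which bounds the precision of all differences given here.

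Autophagy is the enclosure of cytoplasm in a double membrane, the autophagosome, which then fuses with a lysosome. A kinase complex around ULK1 starts the process, a class III phosphatidylinositol 3-kinase marks the membrane with the lipid PI3P, and lipid transfer proteins make it grow. Ubiquitin-like ATG8 proteins (the LC3 and GABARAP families) are then coupled to the membrane by an enzyme cascade and recruit cargo receptors. Growth plate chondrocytes secrete large amounts of collagen, and autophagy is known there as a route that clears excess or misfolded protein, the ER included.

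The unit was the MAS5 signal, a linear brightness of a probe set on an array scaled to a common mean. Signals of chemosensory receptor genes, which cartilage should not express, set a floor of 100.5. A gene was represented by its brightest probe set, and its difference is log2 of the CH signal minus log2 of the round signal, so that positive values are higher in CH. Probe sets of the same gene gave differences with an SD of 0.367 (4825 genes), which is a technical spread and not a replicate error. The zone markers followed the labels. Of 8 measured hypertrophic markers 7 were at least 2-fold higher in CH, among them Col10a1 (24.2 on the round and 10818 on the CH array), and of 9 round or resting markers 8 were at least 2-fold lower. Markers of perichondrium, fibroblasts and tendon were also lower in CH. Of 11 measured, 6 were at least 2-fold lower and 0 higher, and their signals summed to 114612 (round) and 55993 (CH). Of 7 osteoclast and macrophage markers, 4 were measured and all 4 had lower signals in CH (median -0.52), among them Ctsk (803 and 522) and Csf1r (190.2 and 129), whereas Ptprc, Mpeg1 and Acp5 did not reach the floor in either zone. The 5 endothelial markers did not reach it either. The part of these cell types in the differences below was not tested. In such mixed tissue, fewer cells of a type and less RNA per cell cannot be told apart.

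All 49 autophagy genes passed the floor in both zones by their brightest probe set, and few of them differed between the zones. Atg3 was the single gene at least 2-fold higher in CH, where 4.31% of the 11703 measured genes were. Atg9b, just under 2-fold as deposited, passed it under all 3 other scalings. Its round signal (123) was close to the floor, and with a higher floor of 145.4 its difference was a bound of 0.72. Ulk1 was the single gene at least 2-fold lower, where 6.37% of all measured genes were. At 1.5-fold, which is 1.59 times the technical SD, 2 members were higher (Atg3 and Atg9b) against 11.7% of all genes, and 3 were lower (Ulk1, Wdr45 and Atg4c) against 15.8%. This split depended on the scaling, with 8 higher and 1 lower when the arrays were set to equal medians, and 4 higher and 2 lower after quantile normalization or lowess centring. Over all measured genes, 2676 of 11324 were higher and 981 lower with equal medians. With quantile normalization 1519 of 11304 were higher and 1426 lower, and with lowess centring 1532 of 11703 and 1506. As deposited, the remaining 44 of 49 members (89.8%) were within 1.5-fold, compared with 73.9% of the 10235 genes that likewise passed in both zones. The SD of the differences was 0.44 over the members and 0.65 over those genes. The median difference was -0.09 for the members and -0.05 for all measured genes. These figures describe 2 arrays, and the narrower spread was not tested.

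**Figure D1:**
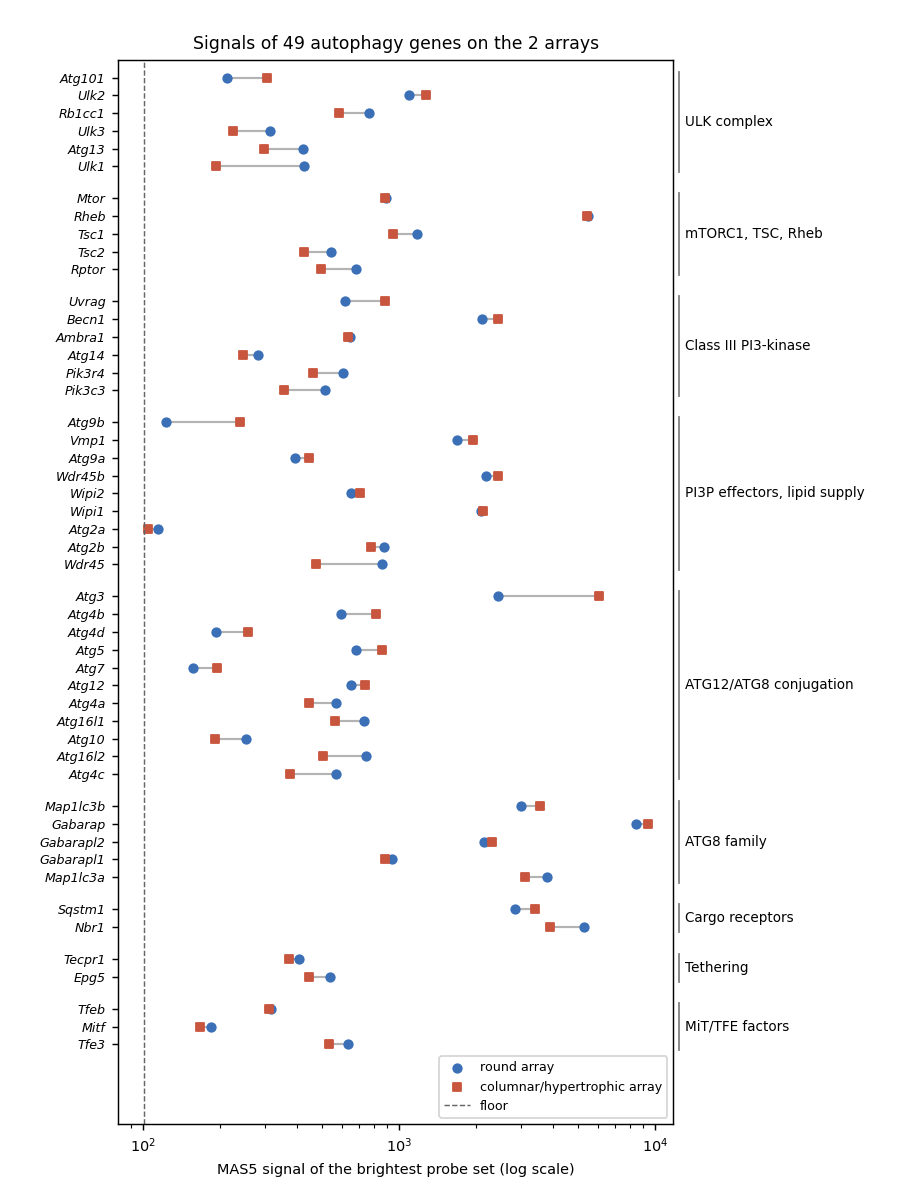
MAS5 signals (horizontal, log scale) of the 49 autophagy genes on the round array (circles) and the CH array (squares), 1 array each, grouped by role, with the floor as a dashed line. Most pairs lie close together; Atg3 goes from 2429.7 to 6072 and Ulk1 from 427 to 194.

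**Figure D2:**
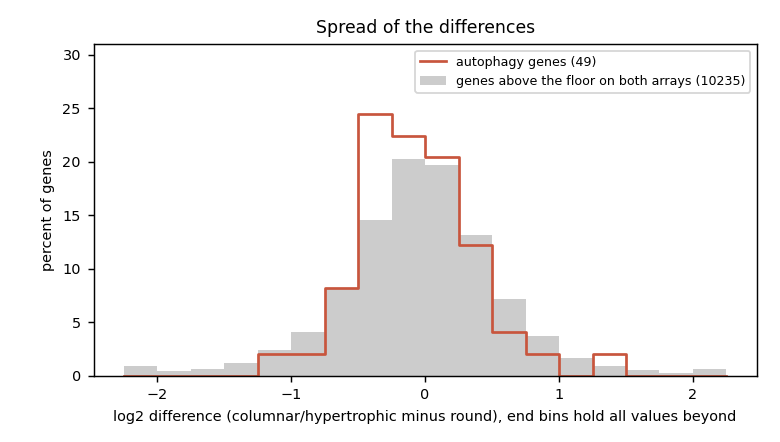
Percent of genes (vertical) by log2 difference between CH and round arrays (horizontal, bins of 0.25) for the 49 autophagy genes (line) and the 10235 genes that passed the floor in both zones (bars), with all values beyond the axis in the end bins. The outermost members are Atg3 (1.32) and Ulk1 (-1.14).

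The promoters of Atg3 and Ulk1 are shown because these were the members that passed 2-fold, and because the MiT/TFE factors in the set bind E-boxes, most strongly a longer form known as the CLEAR element. The sequences are the 250 bases before the RefSeq start in GRCm38.p6, read along the gene, at chr16:45158579-45158828 on the plus strand for Atg3 and chr5:110810082-110810331 on the minus strand for Ulk1. Capitals mark the E-box CACGTG, extended to TCACGTGA where the flanking bases match the core of the CLEAR element.
Atg3: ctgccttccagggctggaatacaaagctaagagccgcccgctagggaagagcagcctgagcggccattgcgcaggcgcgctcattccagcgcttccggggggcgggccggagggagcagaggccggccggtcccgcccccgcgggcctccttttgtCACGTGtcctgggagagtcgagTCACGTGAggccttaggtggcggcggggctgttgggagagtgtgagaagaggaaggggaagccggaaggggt
Ulk1: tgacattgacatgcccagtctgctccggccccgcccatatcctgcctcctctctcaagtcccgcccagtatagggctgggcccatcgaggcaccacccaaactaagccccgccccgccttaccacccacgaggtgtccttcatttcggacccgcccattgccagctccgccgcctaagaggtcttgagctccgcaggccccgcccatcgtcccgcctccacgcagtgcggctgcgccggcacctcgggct
The GC content was 68.0% for Atg3 and 67.2% for Ulk1. Atg3 held an E-box beginning at position -94 and a CLEAR core beginning at position -72, where -1 is the last base before the start, whereas these letters were not found in the Ulk1 window.

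Windows of 300 bases (250 before and 50 after the start) were found for 41 of the 49 members and searched on both strands. The CLEAR core TCACGTGA was found for 1 of 41 members, Atg3, and for 1.12% of the 27025 genes in the table. The E-box CACGTG, which lies inside the CLEAR core, was found for 5 of 41 members (12.2%) and for 8.09% of all genes. Besides Atg3 these were Atg5, Atg7, Atg14 and Rheb, whose differences were 0.34, 0.32, -0.19 and -0.02. The FOXO motif GTAAACA (4.05% of all genes) and the ATF4 motif TGATGNAA (4.51%) were found for 0 of 41 members. A match is a string of letters, and binding was not measured.

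Conjugation of ATG8 proteins to the membrane held the largest difference of the set. ATG7 activates ATG8 and ATG12, ATG3 passes ATG8 on to the lipid phosphatidylethanolamine, ATG10 passes ATG12 to ATG5, and the ATG12-ATG5-ATG16L1 complex directs the last step. Atg3 had signals of 2429.7 on the round array and 6072 on the CH array (2.50-fold, 1.32 on the log2 scale, 3.60 times the technical SD). It rests on 1 probe set, since the other Atg3 probe set lay under the floor in both zones (73.4 and 65.8). Its partners differed less. Atg7 went from 156 to 194 (0.32, and -0.15 by another probe set), and Atg10 from 253 to 191 (-0.41). Atg5 went from 678 to 855 (0.34), and all 3 of its probe sets were higher in CH, by 0.34 to 0.79. Atg12 differed by 0.18, but by -0.53 in a second probe set. Atg16l1 went from 729 to 565 (-0.37), and its homologue Atg16l2 from 741 to 507 (-0.55, and -0.73 by a second probe set).

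Genes of the ATG4 proteases did not move together. These proteases trim ATG8 proteins before conjugation and release them afterwards. Atg4b (593 on the round and 811 on the CH array, 0.45) and Atg4d (193 and 258, 0.42) were on the higher side, and Atg4a (566 and 445, -0.35) and Atg4c (570.0 and 376, -0.60) on the lower. Neither Atg4b nor Atg4c had a settled direction, since a second probe set gave -0.29 for Atg4b and 0.13 for Atg4c. Over the 11 conjugation genes the median difference was 0.18, with 5 below 0, where 52.3% of the genes that passed the floor in both zones were.

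In the ULK complex 1 gene held the opposite extreme. Ulk1, which encodes the kinase that starts autophagosome formation, had signals of 427 on the round array and 194 on the CH array (2.21-fold lower in CH, -1.14). This value also rests on 1 probe set, because the other lay under the floor in both zones (96.8 and 37.9). Its size depended on the scaling, with -0.86 after setting equal medians, -0.97 after quantile normalization and -0.96 after lowess centring, all under 2-fold. The fibrous tissue markers above were lower on the same array, and their part in the Ulk1 value was not tested. Ulk2, the closely related kinase gene, went from 1093 to 1277 (0.22), with 4 probe sets from -0.85 to 0.33. Among the scaffold genes of the complex, Atg13 went from 422 to 298 (-0.50, but 0.03 by a second probe set), and Atg101 from 213 to 306 (0.52). Rb1cc1, encoding FIP200, was at 762 and 582 (-0.39) by its brightest probe set and at 461 and 738 (0.68) by another, so its direction was not settled. Ulk3, a further kinase gene of this family, differed by -0.48. The median of the 6 genes was -0.43, and it was -0.15 with equal medians.

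Genes of the nutrient switch were within 1.5-fold, 5 of 5, with a median of -0.32 (-0.04 with equal medians). Of all genes that passed the floor in both zones, 73.9% were within it. mTORC1 phosphorylates and restrains the ULK complex when amino acids and growth factors are plentiful, the small GTPase Rheb activates it, and the TSC1-TSC2 complex turns Rheb off. Mtor had signals of 889 and 885 (-0.01, but 0.20 by a second probe set), and Rheb 5498 and 5411 (-0.02). Tsc1 went from 1181 to 945 (-0.32, and -0.35 by a second probe set), Tsc2 from 543 to 425 (-0.35), and Rptor, which encodes the substrate-binding subunit Raptor, from 683 to 497 (-0.46). All 5 were below 0 as deposited, where 52.3% of the genes that passed in both zones were. It was 3 of 5 with equal medians and 4 of 5 with quantile normalization or lowess centring, and none reached 1.5-fold.

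The class III PI3-kinase genes were within 1.5-fold, 6 of 6, where 73.9% of all genes that passed the floor in both zones were. Pik3c3, the catalytic subunit VPS34, went from 516 to 356 (-0.54) and its regulatory subunit gene Pik3r4 from 606 to 461 (-0.39). Uvrag, whose product directs the kinase to endosomes, was on the other side, at 614 and 879 (0.52). Atg14, whose product directs it to the forming autophagosome, was at 281 and 247 (-0.19). Ambra1 was at 647 and 631 (-0.04) by its brightest probe set, and differed by -0.87 and -0.15 in the others. Becn1, the scaffold of both complexes, was at 2120.3 and 2436 (0.20) by its brightest probe set and differed by 0.23 in the next. Of its 3 dimmer probe sets, 2 passed the floor in both zones and gave -0.30 and -1.43, and the third gave a bound of -0.71, so that the mean over Becn1 probe sets was -0.40.

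PI3P on the membrane is read by the WIPI proteins, which hand over to the lipid transfer proteins ATG2 and the scramblase ATG9. Wdr45, which encodes WIPI4, had signals of 857 on the round array and 475 on the CH array (1.80-fold lower in CH, -0.85). A second probe set went the same way (701 and 427, -0.72), which made Wdr45 the only member past 1.5-fold whose difference had the same sign in a second measurable probe set. By their brightest probe sets the other WIPI genes were within 1.5-fold. Wdr45b, encoding WIPI3, was at 2194 and 2430.2 (0.15), and Wipi2 at 651 and 704 (0.11, and 0.07 by a second probe set). A further Wipi2 probe set was at 160 on the round array and under the floor in CH (76.1), a bound of -0.67. Wipi1 was at 2096 and 2139 (0.03), with its 6 probe sets from -0.24 to 0.63. Atg9b had signals of 123 and 239 (1.94-fold higher in CH, 0.96), close to the floor on the round array, with 1.15 to 1.24 under the other scalings, and its other probe set did not reach the floor in either zone (76.7 and 7.22). Atg9a, the broadly expressed ATG9 gene, was at 393 and 444 (0.18). Atg2a (-0.13), Atg2b (-0.17) and the ER scramblase gene Vmp1 (0.21) differed little.

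**Figure D3:**
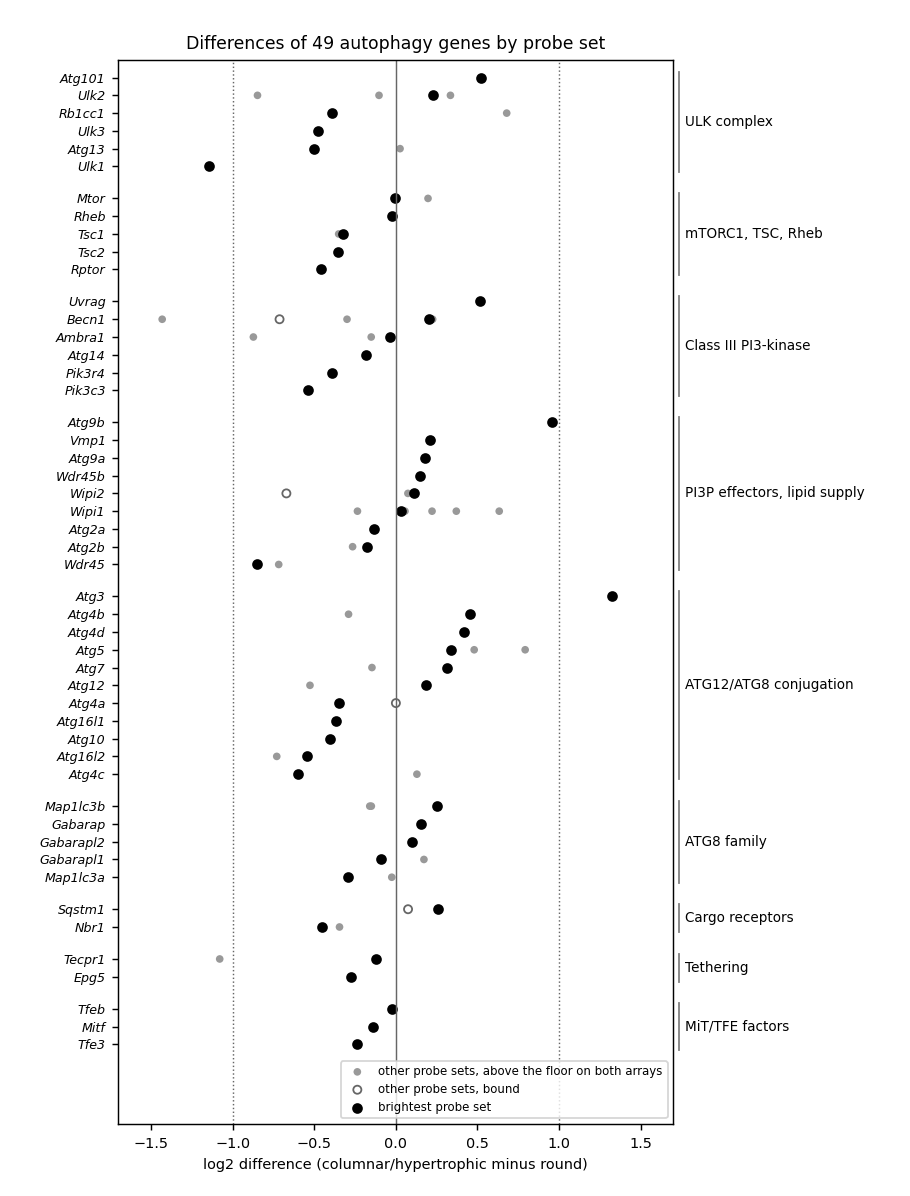
Log2 difference (CH minus round array, horizontal) of the 49 autophagy genes, grouped by role, with the brightest probe set in black, further probe sets that passed the floor in both zones in grey and bounds as open circles; dotted lines mark 2-fold. Atg3 (1.32) and Ulk1 (-1.14) lie outside the lines by their brightest probe set, and grey points on the other side of 0 mark genes such as Rb1cc1, Ulk2 and Becn1.

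Genes of the ATG8 proteins themselves differed little in signal between the zones, with 5 of 5 within 1.5-fold. Of all genes that passed the floor in both zones, 73.9% were within it. Map1lc3b, encoding the LC3B protein used as the common autophagosome marker, had signals of 2996 and 3566 (0.25), whereas the remaining measurable probe sets gave -0.15 and -0.16. Map1lc3a was at 3798 and 3106 (-0.29) by a probe set that may match other genes too, and at 734 and 721 (-0.02) by another. Gabarap was at 8462 and 9418 (0.15), Gabarapl1 at 940.4 and 882 (-0.09, but 0.17 by a second probe set), and Gabarapl2 at 2159 and 2311 (0.10). These differences were smaller than the technical SD, and the sign of the group's median (0.10) turned with quantile normalization (-0.02) and lowess centring (-0.01). Atg3, whose product couples the ATG8 proteins to the membrane, differed by 1.32.

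Cargo receptors bind ubiquitinated cargo and ATG8 together. Sqstm1, encoding p62, was at 2842 and 3397 (0.26), and Nbr1 at 5303 and 3880.3 (-0.45, and -0.35 by a second probe set). Of the genes for tethering to the lysosome, Epg5 was at 537 and 444 (-0.27). Tecpr1 was at 406 and 372 (-0.12) by a probe set shared between transcripts, but at 441 and 209 (-1.08) by one without that mark, so the size of its difference depended on the probe set. The MiT/TFE genes, transcriptional regulators of lysosomes and autophagy, had like signals on both arrays. Tfeb was at 316 and 311 (-0.03), Mitf at 184 and 167 (-0.14) and Tfe3 at 631 and 535 (-0.24), and 3 of 3 were above 0 with equal medians. With that scaling the median of all measured genes was 0.22.

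Agreement between probe sets set a limit on these small differences. Several probe sets passed the floor in both zones for 23 members, and the signs were the same for 11 and opposite for 12. The opposite values were at least 1.5-fold apart for 7, which were Atg12, Atg4b, Atg4c, Becn1, Rb1cc1, Ulk2 and Wipi1. The within-gene SD was 0.418 over these members, against 0.367 over all genes. Under the 4 scalings together, 18 members were higher in CH throughout, 17 lower throughout, and 14 changed sign. The shares over all genes are not given for these counts of signs, so they describe the members and do not set them apart from other genes. Atg3, Atg9b and Uvrag were among those that stayed higher, and Ulk1, Wdr45, Rptor and Nbr1 among those that stayed lower.

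Regulators and receptors next to the core machinery had differences with an SD of 0.58, compared with 0.44 over the members and 0.70 over all measured genes. Of 68 such genes in 8 lists, 67 were measured, 4 were at least 2-fold higher in CH and 2 lower, and 10 and 7 passed 1.5-fold, with a median of -0.02. Of all measured genes, 4.31% were at least 2-fold higher and 6.37% lower, and 11.7% and 15.8% passed 1.5-fold. Within 1.5-fold were 74.6% of the related genes and 72.5% of all measured genes, so that as a whole the related genes were close to the background. The FOXO factors, which activate autophagy and stress genes, diverged. Foxo3 went from 2119 on the round array to 822 on the CH array (2.58-fold lower, -1.37, and -0.55 by a second probe set). Foxo4 went from 975 to 2435 (2.50-fold higher, 1.32, and 0.76 by a second probe set). Foxo1 went from 525 to 996 (0.92), with 3 probe sets from 0.79 to 1.16. The measurable probe sets of each factor thus had 1 sign.

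In the list of mTORC1 partners and amino acid sensing, 18 of 21 genes were within 1.5-fold (median 0.10), where 72.5% of all measured genes were. Rragd, a RAG GTPase gene that recruits mTORC1 to the lysosome, was under the floor on the round array (71.1) and at 439 on the CH array, at least 4.37-fold higher. The bound rests on 1 probe set, as its other probe sets were under the floor on both arrays. The related genes Rraga (0.37) and Rragc (0.10) were within 1.5-fold. Sesn2, a stress-induced inhibitor of mTORC1, was at 130.4 and 332 (1.35), but at 199 and 123 (-0.69) by its other probe set, so no direction was settled. Slc38a9, encoding the lysosomal arginine sensor, was at 606 and 377 (-0.69), with 6 probe sets from -0.88 to -0.47. The AMPK subunit genes, whose kinase activates ULK1 at low energy, had a median of -0.21 over the 6 measured. Prkaa2, a catalytic subunit gene, was at 197 on the round array and under the floor in CH (92.3), at least 1.96-fold lower, and the other 5 were within 1.5-fold.

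Receptors that deliver the ER to autophagosomes bear on the clearance of procollagen. Of 8 measured, 7 were below 0 (median -0.22), where 54.9% of all measured genes were, and 6 were within 1.5-fold, where 72.5% of all were. Retreg2, Retreg3, Rtn3 and Tex264 lay between -0.22 and -0.21, which is less than the shift of 0.28 between scalings, and a second Rtn3 probe set gave 0.43. Ccpg1, an ER-phagy receptor gene induced by ER stress, was at 1869 and 1195 (-0.65, and -0.52 by a second probe set). Calcoco1 was at 202 and under the floor on the CH array (90.1), at least 2.01-fold lower, and Retreg1, encoding FAM134B, was at 281 and 357 (0.34). Stbd1, a glycogen receptor gene, was at 289 and 607 (2.10-fold higher in CH, 1.07). Among mitophagy genes Fkbp8 was at 331 and 557 (0.75), Pink1 at 1355 and 983 (-0.46), and Bnip3 at 18807 and 21340.3 (0.18). Genes for fusion with the lysosome had a median of -0.17, with 10 of 12 within 1.5-fold. The SNARE gene Stx17 was at 836 and 552 (-0.60, with 4 probe sets from -0.60 to 0.50). The HOPS subunit gene Vps41 was at 1906 and 1249 (-0.61, with 3 probe sets from -0.61 to -0.08). Tmem41b, an ER scramblase gene, was at 1658 and 2866 (0.79), with 6 probe sets from 0.04 to 0.79. With equal medians the median of these related genes was 0.26, where that of all measured genes was 0.22. With that scaling 18 of 67 related genes were below 0 in place of 34, against 33 with quantile normalization or lowess centring.

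**Figure D4:**
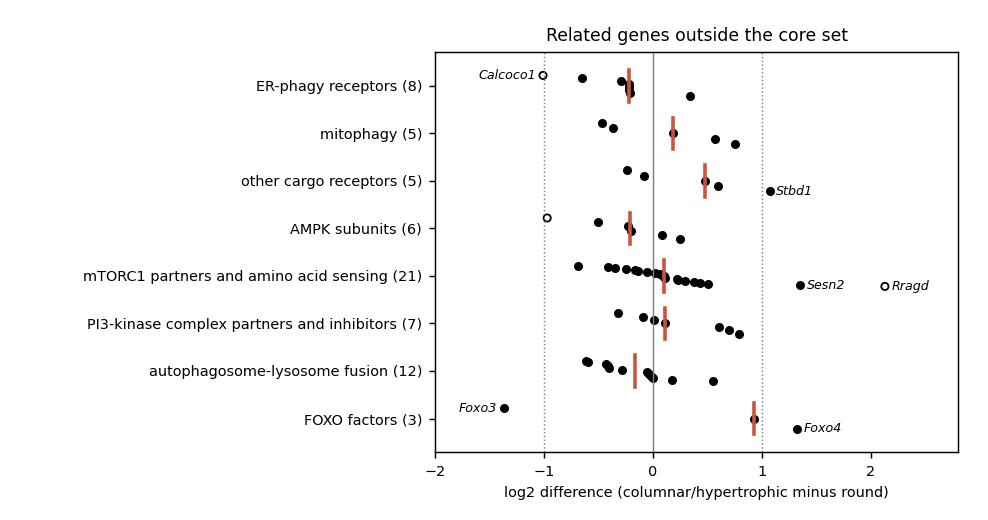
Log2 difference (CH minus round array, horizontal) of 67 genes in 8 lists around the core machinery, 1 point per gene, open points for bounds, bars for list medians and the number of measured genes in brackets. Foxo3 (-1.37) and Foxo4 (1.32) lie on opposite sides, and Rragd (2.13) is the largest difference and a bound.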

How the data were processed

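Total RNA of wild-type cartilage was hybridised to 2 Affymetrix mouse expression arrays, 1 per zone. The authors deposited a linear signal intensity per probe set, 45101 in all. MAS5 is named in the submitters' processing notes, with no version given in the sources used here, whereas the study's methods name RMA; the linear scale and the equal trimmed means (500.0 on both arrays) fit MAS5 signals. Scaling to a common mean assumes comparable total signal, and weak signals are noisy.

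Members were found by matching the symbol of probe sets naming 1 gene, 34958 in all (932 named several and 9211 were unnamed), and 13 of these were array controls and left out. Entrez identifiers of 49 of 49 members matched RefSeq. The floor was the 95th percentile of 87 chemosensory receptor probe sets over both arrays (100.5), and lower signals were set to it ahead of the log2 step. The brightest probe set by mean log2 signal stood for a gene. Bounds are written "at least". There was no test, and genes were counted at 2-fold and 1.5-fold. The counting was tested on simulated data. Alternatives were 3 scalings (equal medians, quantile normalization, lowess with a span of 0.3), 3 treatments of the floor and 2 choices of probe set. Python 3.11.15, pandas 2.3.3 and statsmodels 0.14.6 were used.

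The members and lists were chosen with earlier results of these data known. Genes were named by rule if they differed at least 1.5-fold, were the brightest of their role, had probe sets of opposite sign at least 1.5-fold apart, or belonged to a fixed set (Ulk1, Becn1, Atg5, Atg7, Map1lc3a, Map1lc3b, Gabarap, Gabarapl1, Sqstm1, Tfeb, Mtor and Rheb), and among related genes if they passed 2-fold. The other members, and related genes under 2-fold, were named after their values were seen. Promoter sequences came from RefSeq (GRCm38.p6).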

Additional observations from a re-analysis of the deposited data

How the results depend on the processing

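Setting equal medians shifted differences by 0.28 on the log2 scale, and by less for genes at or near the floor (Atg2a went from -0.13 to 0.07), and moved the median of all measured genes from -0.05 to 0.22, so directions of small differences depend on the scaling. Under equal medians the members' median was 0.19, with 2 genes at least 2-fold higher and 0 lower, and 8 higher and 1 lower at 1.5-fold. Of the 11324 genes then measured, 943 were higher and 414 lower at 2-fold, and 2676 and 981 at 1.5-fold. Quantile normalization gave a median of -0.00398, 2 higher and 0 lower at 2-fold and 4 higher and 2 lower at 1.5-fold, and lowess centring a median of -0.00107 with the same 4 counts. Over 11304 measured genes, quantile normalization gave 569 higher and 582 lower at 2-fold, and 1519 and 1426 at 1.5-fold. Over 11703, lowess centring gave 590 and 598 at 2-fold, and 1532 and 1506 at 1.5-fold. The second member past 2-fold was Atg9b under each of these scalings, and Ulk1 fell under 2-fold. Averaging over probe sets, including those under the floor, 0 were higher and 0 lower at 2-fold and 1 was higher and 2 lower at 1.5-fold (Wdr45 at -0.78 and Atg16l2 at -0.64), and Atg3 was at 0.66, Ulk1 at -0.57 and Atg9b at 0.48. Without _s_at and _x_at probe sets the members' median was -0.0256 and 2 members were at least 2-fold lower, Ulk1 and Tecpr1 (-1.08). Of all 11375 genes then measured, 732 were. Other floors, or none, left the counts at both thresholds as reported. In the average, a probe set under the floor on both arrays counts as a difference of 0. The other probe set of each of Atg3, Ulk1 and Atg9b was of this kind, which brought their averages closer to 0. The cause of the remaining shifts was not tested beyond the construction of each alternative. For single members, 383 of the values under the alternatives moved by less than the technical SD and 7 by more, and no member past 1.5-fold changed sign. All 7 came from the 2 choices of probe set. The equal-median shift of 0.28 lies under that SD (0.367) by construction, and other floors left nearly all members' values almost unchanged. The count of 383 is therefore no measure of stability. Under averaging Becn1 (-0.40) and Rb1cc1 (0.097) changed sign and moved by more than that SD. Smaller moves under averaging also turned the sign of Atg12 (-0.11), Ulk2 (-0.10), Wipi2 (-0.16), Map1lc3b (-0.01), Gabarapl1 (0.04) and Mtor (0.06). No paired analysis was possible because each zone has 1 array. Precision is limited by the single array per zone and by signals near the floor, as for Atg2a and Atg9b.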
